A study of Mus musculus with 10 samples.

Results

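The Polycomb genes described here were Bmi1, Pcgf2, Ring1, Rnf2, Cbx2, Ezh1, Ezh2, Eed and Suz12. All 9 were measured, by 25 probe sets (sets of oligonucleotides on the array that read 1 transcript), out of 18193 genes and 34945 probe sets that carry a single gene symbol. Every probe set whose only symbol is 1 of these genes was kept. Of the 25, 11 lay above the filter on low signal, which was the median of the mean log2 signals of all probe sets, 7.43. Both probe sets of Bmi1 passed this filter, as did 3 of Ezh1, 2 of Rnf2, and 1 each of Cbx2, Ezh2, Eed and Suz12, while those of Ring1 and Pcgf2 did not.

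The arrays read RNA of whole hippocampus from female mice of the inbred strain Balb c/J, born on the same day, and no agent or allele is given for either group. The 5 High Exploration mice and the 5 Low Exploration mice were ranked by a composite of open field measures taken over several sessions, and their labels give no age at dissection. The genetic background was shared by both groups, so that the comparison asks whether expression differs between mice that differ in behavior and not in genotype. The series carries a design text that belongs to a handling experiment on pups, so the labels alone set the groups and the tissue. Values are MAS 5.0 signals, a linear measure of brightness per probe set, and differences are given as High minus Low Exploration on the log2 scale.

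Polycomb proteins keep genes silent through chromatin. Polycomb repressive complex 1 (PRC1) joins a RING ligase to a PCGF protein such as Bmi1 and attaches ubiquitin to a histone, whereas Polycomb repressive complex 2 (PRC2) methylates another histone. In the mouse brain, Bmi1 is known for sustaining neural stem cells by repressing the cell cycle inhibitor gene Cdkn2a.

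Bmi1 was selected on its difference between High and Low Exploration, and the other genes were added because they belong to the same family. Ordered by limma's p, its probe set 1417493_at stood at place 5 among 441 gene-named probe sets above the filter whose High Exploration arrays all exceeded the Low Exploration arrays, and 1448733_at stood at place 19. Selection stopped at place 10, where Arhgap42 stood, and Fam32a followed at place 11, both at a difference of 1.64. The differences of the 9 genes are therefore given as descriptions, with no test.

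Bmi1 was higher on both of its probe sets, by 3.43-fold and 3.68-fold. On 1417493_at, High Exploration replicates 1 to 5 had signals of 11564, 17124, 8878, 7131 and 14698, against 4106, 3846, 3290, 3112 and 2408 in Low Exploration replicates 1 to 5. The lowest High Exploration array stood well above the highest Low Exploration array. The means were 13.46 ± 0.52 in High Exploration and 11.69 ± 0.30 in Low Exploration (log2, SD, n = 5 each), a difference of 1.78 (SE 0.34). On 1448733_at the signals were 14299, 7987, 4611, 8698 and 6933 in High Exploration, against 2258, 2441, 2155, 3893 and 1023 in Low Exploration. The groups again did not overlap, although High Exploration replicate 3 and Low Exploration replicate 4 came close. The means were 12.96 ± 0.59 in High Exploration and 11.08 ± 0.69 in Low Exploration (log2, SD, n = 5 each), a difference of 1.88 (SE 0.42). The platform annotation gives both probe sets the same target sequence, so they are readings of 1 transcript and not separate evidence.

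**Figure D1:**
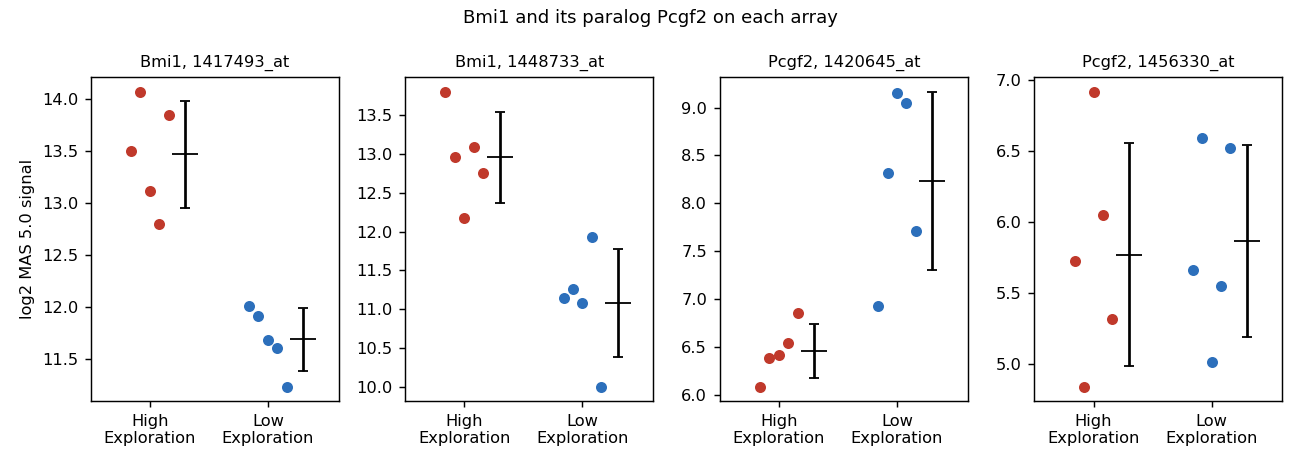
Signal per array (vertical axis, log2 MAS 5.0 signal, 1 point per mouse) for both probe sets of Bmi1 and of Pcgf2 in High Exploration (red) and Low Exploration (blue) mice; bars are the group mean with its SD, n = 5. Both Bmi1 probe sets were higher in High Exploration without overlap, while Pcgf2 1420645_at was lower without overlap and 1456330_at overlapped.

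Both Bmi1 probe sets belonged to the highest decile of mean signal. In that decile the median difference was 0.43, and 6.77% of the 4504 probe sets were higher in High Exploration without overlap, whereas over all 45037 probe sets the median was −0.47 and this share was 1.17%. Measured from the median of all probe sets, the Bmi1 differences were 2.25 and 2.35. As the groups did not overlap, only the runs that rescale the arrays or add a covariate could turn the sign. The High minus Low differences stayed positive under each of 20 alternatives, between 1.21 and 2.38 on 1417493_at and between 0.36 and 2.48 on 1448733_at. The smallest values on both came with the level of the poly-A controls, transcripts added to the RNA before labeling, as a covariate, at 1.21 (SE 0.74) and 0.36 (SE 0.82). With the hybridization controls as a covariate they were 1.33 and 1.32. After quantile normalization the groups overlapped on 1448733_at, while on 1417493_at they stayed apart under every scaling run.

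**Figure D2:**
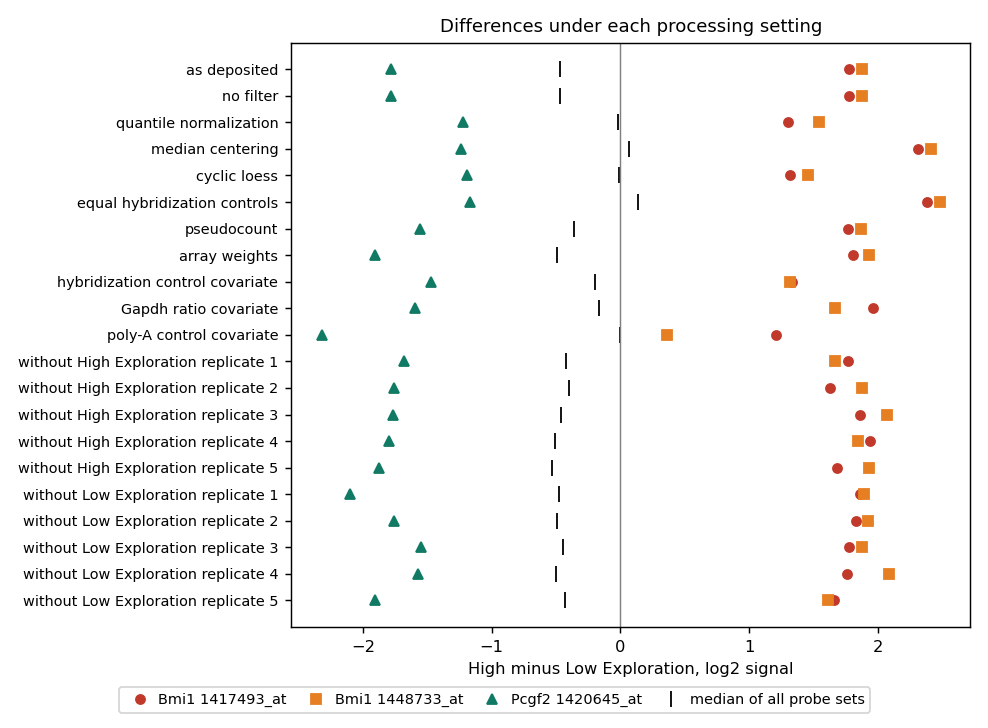
Difference between High and Low Exploration (horizontal axis, log2 signal) for both Bmi1 probe sets and for Pcgf2 1420645_at under each processing setting (rows), with the median of all probe sets as a black tick. Bmi1 was to the right of 0 and Pcgf2 to the left in every row, and 1448733_at came closest to 0, at 0.36, with the poly-A covariate. In the rows without single arrays the side was fixed, as the groups did not overlap.

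The control levels moved with the groups. The poly-A controls ranged from 11.84 to 13.06 in High Exploration and from 13.58 to 14.67 in Low Exploration (mean log2 signal of 24 probe sets, exact 2-sided permutation p = 0.00794), so that the covariate rests on extrapolation between groups that do not overlap. The hybridization controls ranged from 13.25 to 14.03 in High Exploration and from 13.94 to 14.71 in Low Exploration (exact permutation p = 0.0159). The 3' to 5' ratio of Gapdh, which is lower in intact RNA, ranged from 3.96 to 5.21 in High Exploration and from 3.49 to 4.06 in Low Exploration (log2, exact permutation p = 0.0159). With this ratio as a covariate Bmi1 had differences of 1.96 and 1.67. Within the groups, after the group means were subtracted, the signal of Bmi1 1417493_at had an r of −0.374 with the poly-A controls, −0.529 with the hybridization controls and −0.16 with the Gapdh ratio (n = 10, exact permutation p = 0.33, 0.147 and 0.761, adjusted p = 0.658, 0.658 and 0.761 over 6 relations). Spearman's rho was −0.188, −0.6 and −0.0788 (exact permutation p = 0.652, 0.0927 and 0.86). Without High Exploration replicates 2 and 4, the 2 arrays farthest from the median, r was −0.0947, −0.31 and −0.531 (n = 8, exact permutation p = 0.821, 0.468 and 0.272). None of these relations passed.

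Whether the probe sets of Bmi1 track each other from mouse to mouse was asked within the groups, and the relation did not pass. Selection by limma's p and by groups apart favors a small spread within groups, so it also bears on these probe sets. Pearson's r of their deviations was 0.286 (n = 10, exact permutation p = 0.439, adjusted p = 0.658 over the same 6 relations) and Spearman's rho was 0.0909 (exact permutation p = 0.815). Without the same 2 arrays r was 0.493 (n = 8, exact permutation p = 0.272). High Exploration replicate 2 was the highest on 1417493_at, whereas High Exploration replicate 1 was the highest on 1448733_at. A pooled r was not computed, because the arrays fall into separate clusters by group.

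**Figure D3:**
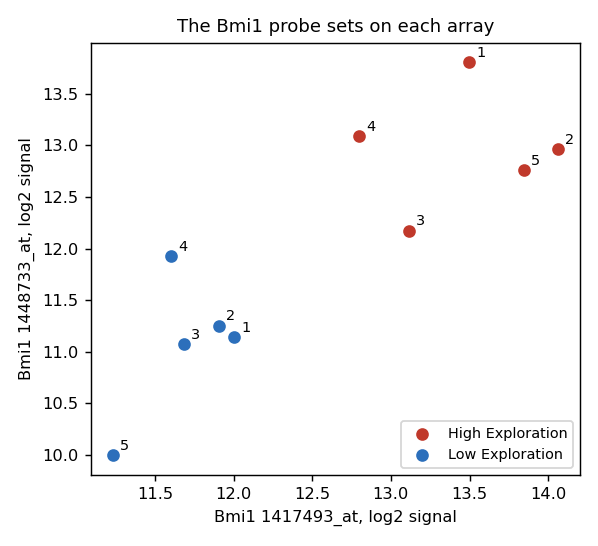
Log2 signal of Bmi1 1448733_at (vertical axis) against Bmi1 1417493_at (horizontal axis), 1 numbered point per array, High Exploration in red and Low Exploration in blue. The groups form separate clusters, and within them r was 0.286 after the group means were subtracted.

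The gene upstream of Bmi1 on the same strand, Commd3, was read by 2 probe sets, both of which had higher means in High Exploration and neither of which passed limma's threshold. Commd3 encodes a COMM domain protein. On 1433539_at the signals were 549, 738, 1520, 325 and 276 in High Exploration, against 354, 249, 187, 18.2 and 181 in Low Exploration. A single Low Exploration array, replicate 1, overlapped with the High Exploration arrays, and replicate 4 stood far below the others. The difference was 2.00 (SE 0.73, limma adjusted p = 0.103). On 1454642_a_at the difference was 1.25 (SE 0.69, limma adjusted p = 0.232), and it turned negative, to −1.13, −1.07 and −1.77, with the hybridization controls, the Gapdh ratio and the poly-A controls as a covariate. Within the groups the signals of the Commd3 probe sets had an r of 0.118 and 0.323 with Bmi1 1417493_at (n = 10, exact permutation p = 0.715 and 0.372, adjusted p = 0.761 and 0.658), with Spearman's rho of 0.115 and 0.406 (exact permutation p = 0.777 and 0.291). Without the 2 farthest arrays r was −0.0712 and 0.222 (n = 8, exact permutation p = 0.882 and 0.613). The 6 probe sets of Dnajc1, which lies farther upstream, had differences between −1.37 and 0.77, and the 2 above the filter had −0.04 and −0.05 (limma adjusted p = 0.955 and 0.932).

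The promoters of Bmi1, of its neighbor Commd3 and of its paralog Pcgf2 are shown because Bmi1 and Pcgf2 were the members whose groups did not overlap and Commd3 lies beside Bmi1. RefSeq sequences for the 250 bases before the start were found for 8 of the 9 genes (all but Cbx2) and for Commd3. Capitals mark the hexamer CACGTG, an E-box that reads the same on both strands, which was picked after the sequences had been read:
Bmi1 promoter, GRCm38.p6 chr2:18676768-18677017, plus strand: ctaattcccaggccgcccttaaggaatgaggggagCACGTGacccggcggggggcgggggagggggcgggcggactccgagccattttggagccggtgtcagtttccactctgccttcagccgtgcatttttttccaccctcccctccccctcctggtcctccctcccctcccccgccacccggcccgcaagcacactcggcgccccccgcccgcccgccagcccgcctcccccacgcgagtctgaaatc
Commd3 promoter, GRCm38.p6 chr2:18672185-18672434, plus strand: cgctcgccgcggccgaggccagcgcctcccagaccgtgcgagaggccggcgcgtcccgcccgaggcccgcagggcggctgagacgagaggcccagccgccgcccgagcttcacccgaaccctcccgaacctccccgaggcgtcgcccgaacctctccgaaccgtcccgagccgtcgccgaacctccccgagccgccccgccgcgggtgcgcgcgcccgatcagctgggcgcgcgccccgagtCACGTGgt
Pcgf2 promoter, GRCm38.p6 chr11:97699649-97699898, minus strand: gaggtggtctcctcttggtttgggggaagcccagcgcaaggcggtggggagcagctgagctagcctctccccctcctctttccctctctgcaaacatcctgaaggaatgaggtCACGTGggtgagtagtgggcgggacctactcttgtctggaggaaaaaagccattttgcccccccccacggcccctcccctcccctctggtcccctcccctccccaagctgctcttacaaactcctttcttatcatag

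The hexamer began 215 bases before the start of Bmi1, 8 bases before that of Commd3 and 137 bases before that of Pcgf2. It was in 2 of the 8 Polycomb promoters and in 6.02% of 32851 promoter windows of the same length. Since the hexamer was picked after the sequences had been read, nothing is read from these shares. Its part in the differences of Bmi1 and Pcgf2 was not tested. The GC box GGGCGG, searched on both strands with overlapping matches counted, was in 5 of the 8 Polycomb promoters and in 32.7% of all windows. It was found 6 times before Bmi1, 4 before Commd3, 3 before Suz12, 2 each before Ring1 and Rnf2, and 1 before Pcgf2. CCAAT, searched on both strands, was in 2 of the 8 Polycomb promoters (3 times before Ezh2 and 1 before Suz12) and in 33.8% of all windows. These matches are descriptions of sequence, and no binding was measured.

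Pcgf2, also called Mel18, encodes the PCGF protein most like Bmi1 and takes the same place in PRC1. It ran opposite to Bmi1 on 1 of its 2 probe sets. On 1420645_at the signals were 67.8, 83.7, 85.3, 92.8 and 116 in High Exploration, against 122, 318, 570, 528 and 210 in Low Exploration. All 5 High Exploration arrays lay below the Low Exploration arrays, with Low Exploration replicate 1 only just above. The High Exploration mean was 6.46 ± 0.28, against 8.23 ± 0.93 for Low Exploration (log2, SD, n = 5 each), a difference of −1.78 (SE 0.48). Its mean over all arrays, 7.34, fell just short of the filter, so that it was not among the probe sets tested. The median difference below the filter was −0.62. With quantile normalization, median centering, cyclic loess or equal hybridization controls the groups overlapped. The difference stayed negative under all 20 alternatives, between −2.32 and −1.17, though only the scalings and the covariates could turn its sign. The other Pcgf2 probe set, 1456330_at, was dimmer and gave −0.10 (SE 0.50), with signals of 28.6 to 121 in High Exploration and 32.3 to 96.5 in Low Exploration.

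Ring1 and Rnf2, the ubiquitin ligases that pair with Bmi1 or Pcgf2, showed no common direction. The brightest Rnf2 probe set, 1451519_at, had signals of 1171, 613, 521, 942 and 1112 in High Exploration, against 733, 619, 202, 1003 and 656 in Low Exploration, a difference of 0.54 (SE 0.45). The groups overlapped over most of their range. On 1424873_at, which the annotation assigns to the same target sequence, the difference was 0.01 (SE 0.39). The 3 remaining Rnf2 probe sets lay below the filter and gave −0.61, −1.34 and −0.21, the last of which turned positive under 9 of 20 alternatives. The single Ring1 probe set, also below the filter, varied within both groups, with signals of 24.3 to 210 in High Exploration and 49.1 to 413 in Low Exploration, and its difference was 0.08 (SE 0.76).

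Cbx2, a chromobox protein by which PRC1 reads the methyl mark of PRC2, had lower means in High Exploration on both of its probe sets. Its brighter probe set, 1434116_at, had signals of 312, 424, 366, 227 and 389 in High Exploration, against 446, 555, 372, 308 and 478 in Low Exploration. The difference was −0.33 (SE 0.32), close to the median of −0.31 above the filter, and it turned positive under 4 alternatives that rescale the arrays. On 1422059_at the difference was −0.40 (SE 0.96), with 2 High Exploration arrays at only 8.15 and 11.3.

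Ezh2 and Ezh1 encode the methyltransferases of PRC2, of which Ezh2 is typical of dividing cells and Ezh1 of cells that no longer divide, such as neurons. Ezh2 had signals of 358, 230, 178, 286 and 185 in High Exploration, against 177, 273, 326, 321 and 214 in Low Exploration. The groups covered the same range, at a difference of −0.10 (SE 0.34), which turned positive under 6 of 20 alternatives. The 4 probe sets of Ezh1 did not agree. The brightest, 1449023_a_at, had signals of 1860, 2638, 3105, 5478 and 2449 in High Exploration, against 2112, 1484, 2562, 3902 and 1881 in Low Exploration, a difference of 0.36 (SE 0.39). On 1418290_a_at, which shares its target sequence, the signals were 323, 408, 409, 548 and 476 in High Exploration, against 457, 894, 1042, 945 and 499 in Low Exploration. Here the difference was −0.77 (SE 0.35), and Low Exploration replicates 2, 3 and 4 stood above the remaining arrays of both groups. On 1429629_at the same 3 Low Exploration arrays were low instead, with signals of 67.3, 73.5 and 75.8, and the difference was 1.15 (SE 0.51). On 1429630_at, below the filter, it was 0.37 (SE 0.78).

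Eed, which binds the methyl mark and stimulates the enzyme, had the largest difference after Bmi1 among the 11 probe sets of the 9 genes that lay above the filter. On 1448653_at the signals were 1246, 2286, 1125, 455 and 278 in High Exploration, against 664, 382, 402, 134 and 139 in Low Exploration. High Exploration replicates 1, 2 and 3 exceeded every Low Exploration array, while replicates 4 and 5 lay within their range. The difference was 1.55 (SE 0.62), and it turned negative, down to −0.51, with the hybridization controls, the poly-A controls or the Gapdh ratio as a covariate. The dimmer probe set 1453830_at gave the opposite sign, −0.93 (SE 0.53), under all 20 alternatives.

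Suz12, which holds PRC2 together, was read by 6 probe sets, of which only 1420021_s_at passed the filter. Its signals were 2627, 1325, 1360, 2338 and 1921 in High Exploration, against 1687, 2275, 581, 2420 and 1221 in Low Exploration, and the groups overlapped at a difference of 0.34 (SE 0.43). The 5 dim probe sets ranged from −1.19 to 0.92, and 1452364_at ranged from 3.30 to 237 within High Exploration and from 8.05 to 246 within Low Exploration.

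**Figure D4:**
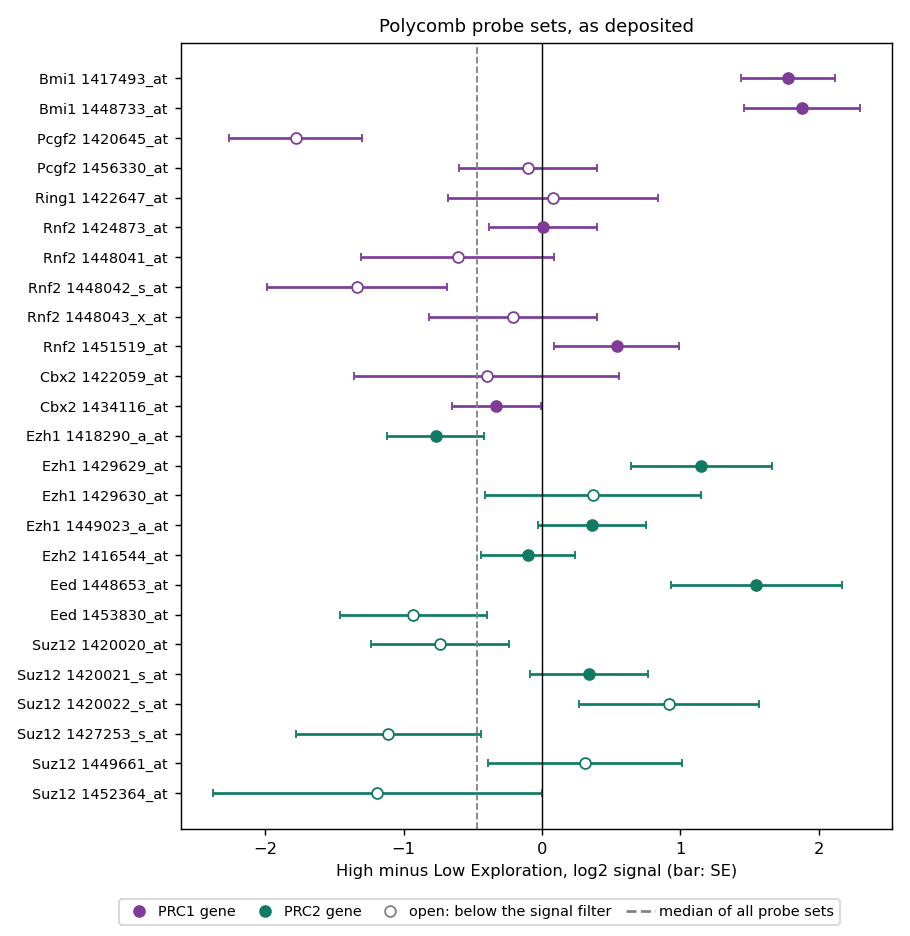
Difference between High and Low Exploration (horizontal axis, log2 signal, bar is the SE) for each of the 25 Polycomb probe sets; purple marks PRC1 genes, green PRC2 genes, open points lie below the signal filter and the dashed line is the median of all probe sets, −0.47. Bmi1 had both probe sets near 1.8 (1.78 and 1.88), whereas Rnf2, Ezh1, Eed and Suz12 had probe sets on both sides of 0.

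Over all 25 probe sets, 12 had a higher mean in High Exploration, beside 31.0% of all 45037 probe sets, and above the filter 8 of 11 did, beside 38.1% of 22518. The median difference over all 25 was −0.10. This median has no settled direction, since it was 0.39 with quantile normalization, 0.44 with median centering, 0.42 with cyclic loess and 0.51 at equal hybridization controls, where the median of all probe sets was −0.02, 0.07, −0.01 and 0.14. Groups were apart on 3 of the 25, beside 6.01% of all probe sets. Of the 3, 2 were higher (both of Bmi1, beside 1.17%) and 1 lower (Pcgf2, beside 4.84%), and above the filter the counts were 2 higher and 0 lower, beside 2.14% and 6.69% of all probe sets there. None of the 11 probe sets above the filter passed limma's threshold of 0.05 after Benjamini-Hochberg adjustment, beside 0.0133% of 22518, and 5 had an unadjusted p under 0.05 (4 higher and 1 lower), beside 30.2%. As the comparison itself chose Bmi1, nothing is read from these counts.

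The other genes of the pathway, from a list of 34, were represented by 32 genes and 91 probe sets, of which 64 lay above the filter. None of the 64 passed (limma adjusted p of 0.0755 and above), and at an unadjusted p under 0.05 there were 7 higher and 10 lower of the 64, beside 30.2% in either direction over all probe sets tested. Their median difference was −0.09 above the filter, beside −0.31 over all probe sets tested. It turned positive under the 4 scalings, at 0.30 with quantile normalization, 0.45 with median centering, 0.25 with cyclic loess and 0.52 at equal hybridization controls. The median over all probe sets tested moved as well, to −0.01, 0.23, −0.02 and 0.30. Among PRC1 subunits, Scmh1, a sex comb protein, had a difference of −1.07 on 1439554_at (SE 0.41, limma adjusted p = 0.109) and −0.86 on 1441573_at (SE 0.39, limma adjusted p = 0.156). In variant PRC1, Yaf2, which takes the place of the Cbx subunit, had 13.27 ± 0.65 in High Exploration and 11.94 ± 0.61 in Low Exploration on 1429839_a_at (log2, SD, n = 5 each), a difference of 1.33 (SE 0.41, limma adjusted p = 0.0776). Auts2, a subunit of a variant complex that activates genes in neurons, had a difference of 1.29 on 1457139_at (SE 0.47, limma adjusted p = 0.102).

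Among the partners of PRC2, Phf19, a Tudor domain protein that helps recruit the complex, had 7.45 ± 1.41 in High Exploration and 9.50 ± 0.83 in Low Exploration (log2, SD, n = 5 each), a difference of −2.05 (SE 0.63, limma adjusted p = 0.0763). Rbbp4, a histone-binding subunit, had a difference of 1.09 on 1434892_x_at (SE 0.36, limma adjusted p = 0.0873). Kdm6a, a demethylase that removes the mark of PRC2, had −1.95 on 1445198_at (SE 0.59, limma adjusted p = 0.0755), and Asxl3, a cofactor of the enzyme that removes the mark of PRC1, had −1.88 on 1442095_at (SE 0.75, limma adjusted p = 0.119). None of these genes had groups that did not overlap on the probe set named. Of all 91 probe sets, only 1445151_at of Mtf2 had groups apart, in the lower direction, beside 4.84% lower and 6.01% in either direction over all probe sets. It was named after its values were seen.

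**Figure D5:**
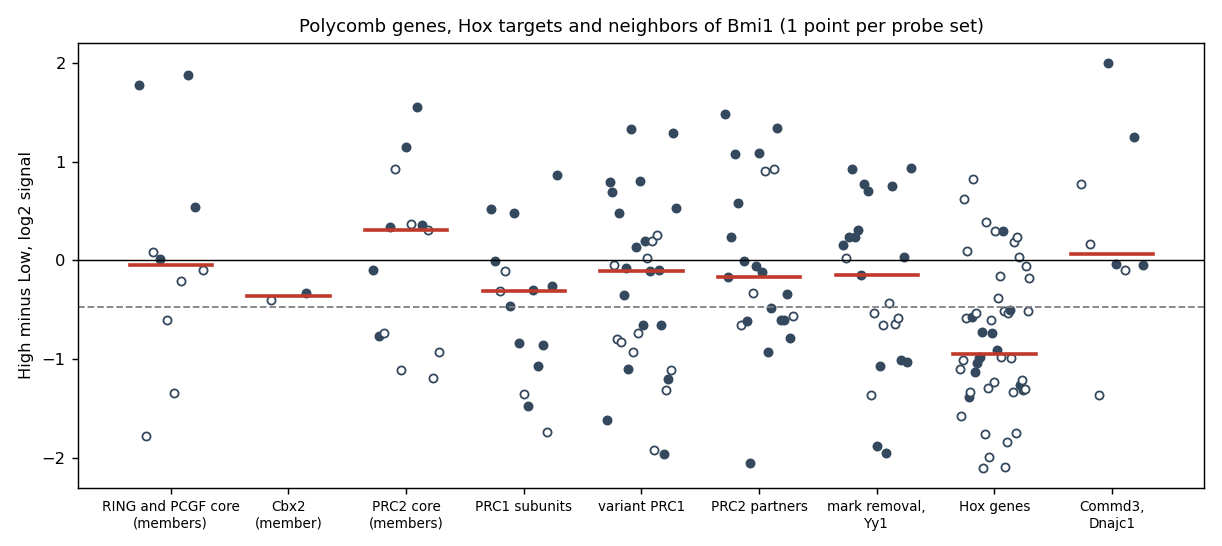
Difference between High and Low Exploration (vertical axis, log2 signal) for each probe set of the Polycomb genes, the other genes of the pathway, the Hox genes and the neighbors of Bmi1 (horizontal axis, by list); open points lie below the signal filter, red lines are list medians and the dashed line is the median of all probe sets. The medians of the Polycomb lists lay between −0.37 and 0.31, and that of the Hox genes at −0.94.

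Genes that Polycomb proteins are known to silence were mostly dim. Cdkn2a, the classic target of Bmi1, was read by 1 probe set below the filter, with signals of 241, 28.6, 22.9, 148 and 186 in High Exploration, against 315, 153, 357, 35.2 and 277 in Low Exploration. The groups overlapped, at a difference of −1.05 (SE 0.82). Cdkn2b, its neighbor and also a cell cycle inhibitor, had −0.53 (SE 0.66, limma adjusted p = 0.6). The probe sets of Cdkn1a, another inhibitor, gave 1.16 and −1.26, both below the filter. The Hox genes, developmental regulators held silent in the forebrain by Polycomb proteins, were read by 48 probe sets of 33 genes, of which 36 lay below the filter. Of the 48, 9 had higher means in High Exploration, beside 31.0% of all 45037 probe sets, and 39 had lower means. Their median was −0.94, beside −0.62 for all probe sets below the filter. The groups were apart on 4, all lower, beside 4.84% of all probe sets. Under the 4 scalings the Hox median lay between −0.41 and −0.34, with 28 to 31 probe sets lower, where that of all probe sets lay between −0.02 and 0.14. With the hybridization or poly-A controls as a covariate the Hox median turned positive, at 0.04 and 0.23, beside −0.2 and 0 for all probe sets. None of the 12 above the filter passed limma's threshold, and 4 had an unadjusted p under 0.05, all lower, beside 30.2% in either direction over all probe sets tested. Hoxc8 had 7.34 ± 0.59 in High Exploration and 8.60 ± 0.55 in Low Exploration (log2, SD, n = 5 each, limma adjusted p = 0.0782). Hoxa5 had 5.61 ± 0.67 in High Exploration and 7.70 ± 0.75 in Low Exploration on 1448926_at (log2, SD, n = 5 each), which lay below the filter and was not tested, and its other probe set gave 0.30 (limma adjusted p = 0.72).

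The tissue label was set beside markers of hippocampal neurons. Each marker gene was read on its probe set of highest mean signal only, a choice that favors passing the filter. Its other probe sets, which may differ, are not described. All 6 neuron markers lay above the filter. That limit is the median of all probe sets, and markers of dividing cells and young neurons also passed it 6 of 6 times. Of the neuron markers 3 had higher means in High Exploration, beside 38.1% of the probe sets above the filter, with a median difference of 0.05. Slc17a7, the vesicular glutamate transporter of pyramidal neurons, had 6.99 ± 1.31 in High Exploration and 9.10 ± 0.37 in Low Exploration (log2, SD, n = 5 each, limma adjusted p = 0.0644). Its groups did not overlap, with signals of 36.5 to 331 in High Exploration and 431 to 832 in Low Exploration, a difference of −2.11 (SE 0.55). Above the filter, 6.69% of all probe sets were lower without overlap. Neurod6, a transcription factor of pyramidal neurons, ran the other way, with 11.83 ± 0.45 in High Exploration and 10.65 ± 0.43 in Low Exploration (log2, SD, n = 5 each, limma adjusted p = 0.0726). Snap25, Wfs1, Camk2a and Prox1 had differences of 0.34, 0.11, −0.01 and −0.74.

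Of the markers of dividing cells and young neurons, in which Bmi1 and Ezh2 are known to act, 2 of 6 had higher means in High Exploration, again beside 38.1%. Dcx, Mki67, Sox11 and Top2a had differences of −1.58, −1.33, −1.23 and −0.61, while Nes and Sox2, which mark neural stem cells, had 0.28 and 0.10 (limma adjusted p of 0.0776 for Sox11 and 0.125 for Mki67, and higher for the rest). The mean level of that list ranged from 8.70 to 10.32 in High Exploration and from 9.87 to 10.78 in Low Exploration. For endothelium it ranged from 6.44 to 8.01 in High Exploration and from 7.87 to 8.64 in Low Exploration. For astrocytes, whose 3 markers all had higher means in High Exploration, it ranged from 10.20 to 11.42 in High Exploration and from 9.60 to 10.63 in Low Exploration. For oligodendrocytes it ranged from 10.07 to 11.88 in High Exploration and from 9.43 to 11.35 in Low Exploration. For microglia it ranged from 8.29 to 9.83 in High Exploration and from 8.90 to 10.25 in Low Exploration, and for choroid plexus from 7.82 to 10.42 in High Exploration and from 9.09 to 10.59 in Low Exploration. The mean levels of the groups thus overlapped in each of these lists. Among the single markers of all lists, only Slc17a7 had groups that did not overlap. Of the markers of 7 cell classes, none above the filter passed limma's threshold, beside 0.0133% of 22518 probe sets, and those below it were not tested. Above the filter, Slc17a7, Neurod6, Sox11 and Mki67 had an unadjusted limma p under 0.05, beside 30.2% of all probe sets tested. The part of these cell classes in the Polycomb differences was not tested. In RNA of whole tissue, fewer cells of a type and less RNA per cell cannot be told apart.

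The genes whose signal followed Bmi1 1417493_at most closely within the groups were Ranbp2, Fam13c, Ankle2, Rbbp6 and Spns2, with r of 0.934, 0.93, 0.922, 0.899 and 0.898 over 10 arrays among 18076 gene-named probe sets above the filter. These are the highest of many correlations and a description only. Their own differences between High and Low Exploration were 0.45, 0.18, −0.25, −0.45 and 0.14, all smaller than that of Bmi1.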

How the data were processed

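Total RNA of whole hippocampus was labeled with biotin and hybridized to Affymetrix Mouse 430 2.0 arrays, 1 per mouse. For its extraction the paper names columns or Trizol, without saying which served these mice. The labels describe standard labeling and the methods a double round of amplification, so this point is not settled. The authors summarized each array with MAS 5.0 in Expression Console, and the deposited intensity values are linear signals, each array scaled by a constant to a trimmed mean of 500, with no normalization of the distribution. Depth has no meaning for arrays, and their number, 5 per group, limits the precision.

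The 64 control probe sets were set aside, which leaves 45037. Signals were converted to log2 and fitted with limma 3.58.1 (R 4.3.3; lmFit, eBayes, group as the only term) over the 22518 probe sets with a mean log2 signal above the median of 7.43, with Benjamini-Hochberg adjustment at 0.05. Members below the filter have their SE from a fit without it. Gene names came from the platform annotation (34945 probe sets with 1 symbol, 932 with several, 9160 with none among those analyzed). Single values were compared by exact 2-sided permutation, and relations within groups by all 14400 permutations inside the groups. Alternatives were the filter, 4 scalings, a pseudocount of 23.0 (the 10th percentile of signal), array weights, covariates and leaving out each array. Named beside the members were the 2 probe sets with the smallest p of each pathway list, the neighbors of Bmi1, the Cdkn genes, and the 5 probe sets most correlated with Bmi1. The members and lists were chosen with earlier results of these data known. Replicate numbers follow accession order and pair nothing. Promoters are from RefSeq, GRCm38.p6.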

Additional observations from a re-analysis of the deposited data

Results flagged for a closer look

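In 2 of 50 groups of 5 arrays, 1 array lay apart from the others by Dixon's criterion (gap over range of log2 signal above 0.71), where chance gives about 1 in 20. For Rnf2 1448041_at, High Exploration replicate 4 had a signal of 286 with the nearest array at 49.2 (gap over range 0.809). For Eed 1453830_at, High Exploration replicate 5 had 38.9 with the nearest at 136 (gap over range 0.756). Both probe sets lay below the signal filter.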

How the results depend on the processing

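The groups of both Bmi1 probe sets do not overlap as deposited. The sign of the difference was therefore fixed without the filter, with the pseudocount, with array weights and without single arrays. Only the scalings and the covariates could turn it. Both Bmi1 probe sets kept a positive difference under all 20 alternatives run, but its size moved. On 1417493_at it was 1.30 with quantile normalization, 2.31 with median centering, 1.32 with cyclic loess, 2.38 at equal hybridization controls, 1.33 with those controls as a covariate and 1.21 with the poly-A covariate, against 1.78 as deposited; on 1448733_at the poly-A covariate gave 0.36 against 1.88. Without single arrays the ranges were 1.63 to 1.94 and 1.61 to 2.09. The median over the 25 Polycomb probe sets moved from −0.10 to 0.39, 0.44, 0.42 and 0.51 under quantile normalization, median centering, cyclic loess and equal hybridization controls, and lay between −0.16 and 0.06 without single arrays. Groups were apart on 1 of the 25 after quantile normalization (3 as deposited), and on 3 to 4 without single arrays.

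Over all probe sets limma called 3 as deposited, 32 without the filter, 906 with median centering (830 higher), 5 with cyclic loess, 366 with the pseudocount, 2186 with array weights, 51 with a filter on linear means, and 0 at equal hybridization controls and with each of the 3 covariates, which left 1719, 1790 and 682 at an unadjusted p under 0.05 (hybridization controls, Gapdh ratio and poly-A controls; 6106 at equal controls). Without single arrays the count ran from 2 to 1042. It was 1042 without High Exploration replicate 5, 11 without High Exploration replicate 3 and 17 without Low Exploration replicate 1. Of the other Polycomb genes, 2 probe sets passed with median centering (Yaf2 and Rbbp4), 4 with array weights (Yaf2, Rbbp7, Phf19 and Kdm6a) and 0 to 1 without single arrays (Phf19, without High Exploration replicate 5). Both Bmi1 probe sets passed in 4 of these settings (median centering, the pseudocount, array weights, and without High Exploration replicate 5), which is no test of a gene chosen on this comparison. The within-group r of the Bmi1 probe sets ran from 0.0071 to 0.43 without single arrays. It was 0.205 with quantile normalization, 0.485 with median centering, 0.0565 with cyclic loess and 0.613 at equal hybridization controls (exact permutation p = 0.553, 0.166, 0.874 and 0.079). This r passed under none of the alternatives for which it was computed. The cause of these changes was not tested. The poly-A covariate and the filter on linear means were added after seeing the data. No paired analysis was possible because the labels give the groups no shared replicate numbers.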

Other observations

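Probe sets of the same gene disagreed in the wider pathway as they did for Eed and Ezh1. Rbbp4 had differences of 1.09 and 1.34 on 2 probe sets and −0.61 and −0.79 on the other 2. Rbbp7 had 1.48 on 1415775_at and −0.34 on 1456227_x_at, and Auts2 had 1.29 on 1457139_at and −1.96 on 1452379_at. Within Rbbp7, the probe set 1456227_x_at was bright on all arrays, at 51436 to 107854 in High Exploration and 67832 to 122735 in Low Exploration. Kdm6a had 0.92 on 1427235_at beside the −1.95 on 1445198_at. These probe sets were chosen after their values were seen.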
